A study of Mus musculus with 32 samples.

Results

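The heat shock proteins and DnaJ chaperones were examined in the hippocampus and striatum of mice given a class I histone deacetylase inhibitor before a fear conditioning session. Members were the protein-coding genes whose symbol starts with Hspa, Hspb, Hspd, Hspe, Hsph, Hsp90, Dnaja, Dnajb or Dnajc, or with Bag or Hsf and a digit, and that had at least 10 counts in at least 4 of the 32 libraries. Of 86 protein-coding genes with such a symbol, 76 passed and 10 did not, against 19374 genes of the whole table that passed the same minimum. The 76 comprise 13 Hsp70 genes, 1 Hsp110 gene, 3 Hsp90 genes, 2 genes of the mitochondrial chaperonin, 3 small heat shock genes, 4 DnaJ A, 11 DnaJ B and 25 DnaJ C genes, 6 Bag genes and 4 heat shock factors. The remaining 4, Hspb11, Hspbp1, Hspbap1 and Hsf2bp, share only the letters of the symbol with a family. The 10 genes below the minimum were Hspb2, Hspb3, Hspb7, Hspb9, Dnajb7, Dnajb8, Dnajc5b, Dnajc5g, Dnajc22 and Hsf3, and they were not tested.

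Bulk RNA-seq was made from single hemispheres of male C57BL/6J mice aged 12 weeks, with no transgene or mutation. Mice received CI-994 (HDACi) at 30 mg/kg or the same solvent without it (Veh) by intraperitoneal injection, and 1 h later entered the chamber. They then either received 2 foot shocks of 0.2 mA (contextual fear conditioning, CFC) or were placed in the chamber without shock (Context), and tissue was taken 1 h afterwards. The 8 groups were HDACi CFC, Veh CFC, HDACi Context and Veh Context in each region, with 4 libraries a group, each from 1 mouse. All mice of a cage had the same session, so cage and session cannot be told apart. The labels do not say whether hippocampus and striatum libraries of the same number came from the same mouse.

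Chaperones bind unfolded protein and release it in a cycle driven by ATP. DnaJ proteins bring clients to Hsp70 and start its ATP hydrolysis, Hsp110 and Bag proteins exchange the nucleotide, and Hsp90 finishes the folding of kinases, receptors and other clients. Heat shock factors switch on the inducible chaperones by binding repeats of a short unit in their promoters, and a separate set of chaperones in the endoplasmic reticulum (ER) is switched on by the unfolded protein response. In neurons, these proteins are known for clearing misfolded protein and for uncoating clathrin-coated vesicles.

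Promoter sequences are shown with letters that match elements known from these pathways, and binding in these mice was not measured. RefSeq promoters (GRCm38.p6, 250 bases before to 50 after a start) were found for 62 of the 76 members. The heat shock element was searched as a pair of units, GAANNTTC or TTCNNGAA, on both strands. It was present in 16 of the 62 members (25.8%) and in 4587 of 27025 genes of the same table (17%). A run of 3 units, GAANNTTCNNGAA or TTCNNGAANNTTC, was present in 4 members, Dnajb6, Hsph1, Hspd1 and Hspe1 (6.45%), and in 0.662% of all genes. The lines that follow give 8 of the members that hold the element and are described further on, 5′ to 3′ on the gene's strand, with the unit pairs in capitals.
Hspa1a (chr17:34972228-34972285, minus strand): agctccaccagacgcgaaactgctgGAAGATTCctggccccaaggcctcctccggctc
Hspa1b (chr17:34959310-34959367, minus strand): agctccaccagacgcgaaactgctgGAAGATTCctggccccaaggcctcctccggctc
Hspb1 (chr5:135887777-135887854, plus strand): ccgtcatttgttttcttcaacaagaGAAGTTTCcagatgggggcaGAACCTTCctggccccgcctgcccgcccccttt
Hspe1 (chr1:55088053-55088082, plus strand): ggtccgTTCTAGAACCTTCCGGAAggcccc
Hsph1 (chr5:149636351-149636380, minus strand): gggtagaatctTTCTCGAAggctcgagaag
Dnajb4 (chr3:152193846-152193884, minus strand): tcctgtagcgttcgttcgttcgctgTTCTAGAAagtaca
Hspb8 (chr5:116422844-116422873, minus strand): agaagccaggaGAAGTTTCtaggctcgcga
Bag3 (chr7:128523614-128523632, plus strand): ggatgggaccaGAAGTTTC
In Hspb8 and Bag3 the pair lay after the start, and in the others the pairs printed lay before it. Hsph1 held up to 3 pairs in a promoter, and its line shows only the 1 pair before the start. Its run of 3 units is not printed. Hspe1 shows 2 overlapping runs of 3 units. It lies head to head with Hspd1, and 112 exon bases of these genes overlap on opposite strands. Hspa1a and Hspa1b were identical over 247 of the 250 bases before the start, and reads of these near-identical genes may be shared out uncertainly between them.

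The ER stress element, searched as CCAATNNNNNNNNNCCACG on both strands after the expression values were seen, was present in 3 of the 62 members (4.84%) and in 37 of 27025 genes (0.137%). These were Hspa5, Hsp90b1 and Dnajc3, all chaperones or co-chaperones of the ER lumen. The element is in capitals, and the second copy in Hsp90b1 is on the other strand.
Hspa5 (chr2:34772020-34772048, plus strand): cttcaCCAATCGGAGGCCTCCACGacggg
Dnajc3 (chr14:118937802-118937870, plus strand): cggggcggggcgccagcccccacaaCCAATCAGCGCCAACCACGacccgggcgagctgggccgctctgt
Hsp90b1 (chr10:86705508-86705681, minus strand): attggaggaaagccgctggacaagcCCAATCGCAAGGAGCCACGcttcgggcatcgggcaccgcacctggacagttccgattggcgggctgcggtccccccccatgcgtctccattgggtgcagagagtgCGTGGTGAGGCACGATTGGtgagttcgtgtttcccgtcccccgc
A match is a description of these letters in this window, and no match says nothing of a factor's binding.

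Library totals ranged between 26026024 and 36670767 counts, and the members took 0.898% to 1.32% of them. Levels are given as CPM, counts scaled to the library total, and between genes also per kilobase of exon. Choroid plexus markers stood apart in HDACi CFC replicates 2 and 4 of the hippocampus, and medium spiny neuron markers were lowest of their groups in HDACi CFC replicate 2 and Veh CFC replicate 3 of the striatum. The defining markers of neurons, astrocytes and oligodendrocytes summed to at least 2452, 4006 and 3034 CPM in every library. A list of 8 genes for the drug effect was chosen with earlier results of these data known, so it is no independent check. In it, Sirt1, a deacetylase of another class, fell 3.04-fold to 4.33-fold and Themis2 rose 4.1-fold to 5.04-fold in the 4 drug comparisons. Of the 8, 2 rose and 4 fell in hippocampus CFC, and 3 rose and 3 fell in hippocampus Context. In each striatum comparison 1 rose and 3 fell.

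Per kilobase, the cytosolic Hsp90 gene Hsp90ab1 had the highest mean of the members, 621 CPM per kb over the 32 libraries. The constitutive Hsp70 gene Hspa8 followed with 475 CPM per kb and Hsp90aa1 with 282 CPM per kb. The ER chaperones Hsp90b1 and Hspa5 had 101 and 74.8 CPM per kb. The inducible Hsp70 gene Hspa1a was near the other end with 0.739 CPM per kb, and Hsf2bp was lowest with 0.0678 CPM per kb. Dnajc25 and Hspbap1, which between them had the lowest log2 fold change in every drug comparison, were also low, at 0.652 and 0.442 CPM per kb.

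The drug comparisons set HDACi against Veh within each region and session, to ask how the inhibitor altered expression after the session. A gene was called at an adjusted p under 0.05 (edgeR's quasi-likelihood test, Benjamini-Hochberg over all genes tested). In the hippocampus after CFC, 15 of 76 members were called, 5 higher and 10 lower (19.7%), beside 20.8% of all genes, 7.42% higher and 13.4% lower. In the hippocampus after Context, 14 of 76 were called, 4 higher and 10 lower (18.4%), beside 19.8% of all genes, 6.55% higher and 13.2% lower. In the striatum, where Hsf2bp was not tested, 15 of 75 were called after CFC, 7 higher and 8 lower (20%), beside 24.2% of all genes, 9.57% higher and 14.6% lower. After Context in the striatum, 15 of 75 were called, 5 higher and 10 lower (20%), beside 24.8% of all genes, 10.3% higher and 14.5% lower. The members' share was thus near the background in each comparison, and the counts are no result about chaperones as a class. Their median log2 fold change lay between -0.01 and 0.03, and that of all genes between 0.01 and 0.03.

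The split between higher and lower members moved with the scaling. With library size alone it was 3 and 14 after CFC and 2 and 15 after Context in the hippocampus, and 2 and 14 and 2 and 18 in the striatum. Of all genes called with that scaling, 76.4%, 81%, 76.5% and 78.6% were lower, in the same order. With offsets for GC content and length the members' split was 14 and 12, 15 and 12, 12 and 10, and 13 and 11. Of all genes called with the offsets, 51.1%, 48.9%, 52.4% and 49.1% were lower. The split thus moved over all genes too, and is no result about chaperones. Same-numbered hippocampus Context libraries deviated together. With a replicate block the hippocampus Context comparison called 23 members, 11 higher and 12 lower, beside 29% of all genes. Without the libraries that stand apart, only replicates 1 and 3 of hippocampus HDACi CFC remained. The hippocampus CFC comparison then called 8 members, 3 higher and 5 lower, beside 12.6% of all genes. Hippocampus CFC calls lost in this fit, named below, were lost with only those treated libraries.

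**Figure D1:**
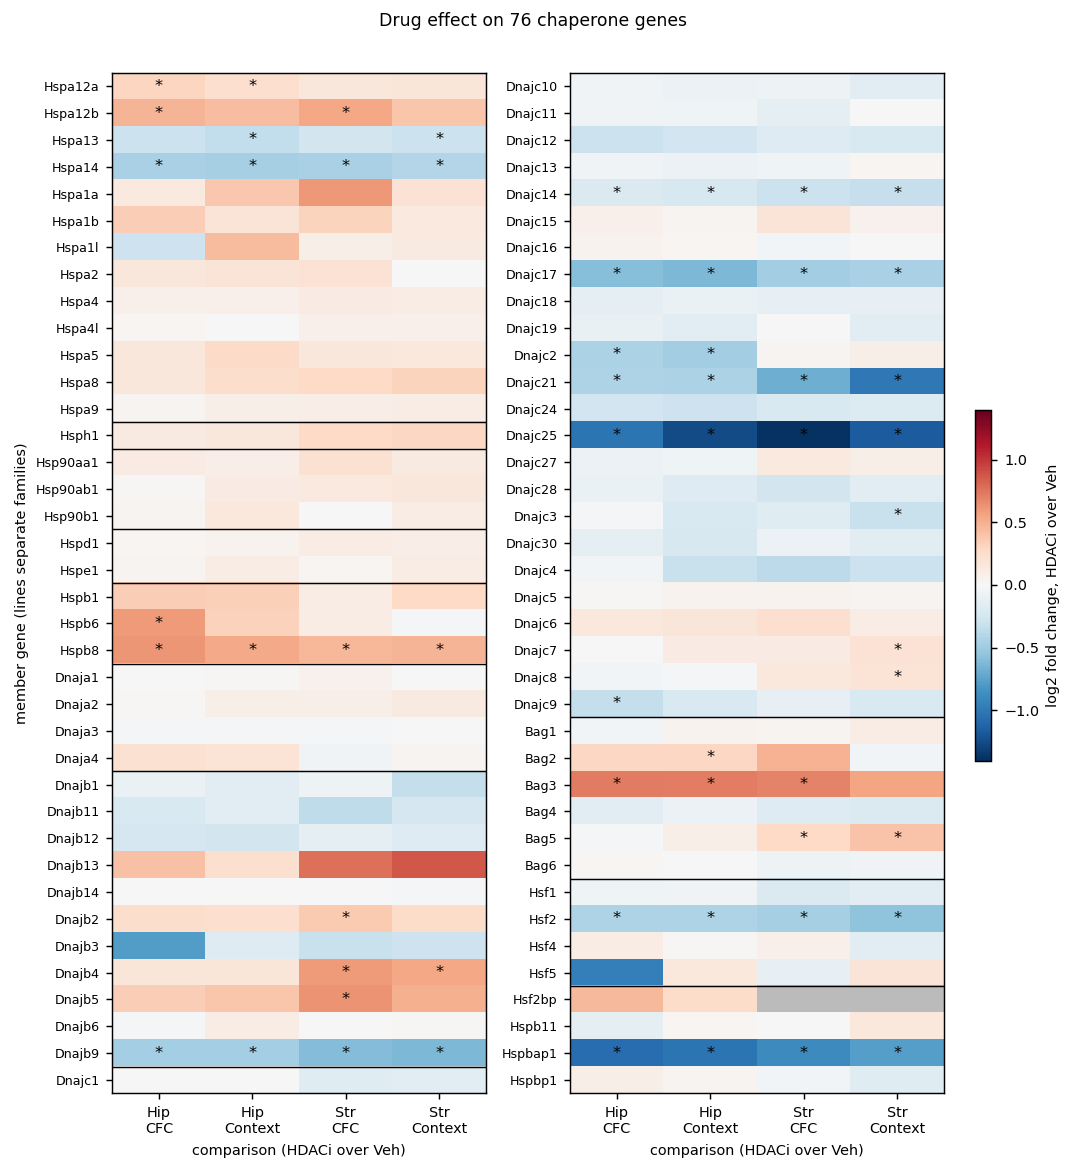
Log2 fold change (HDACi over Veh, colour) of each of the 76 members (down the page, lines between families) in the 4 drug comparisons (Hip, hippocampus; Str, striatum); stars mark calls at adjusted p under 0.05 and grey marks Hsf2bp, not tested in the striatum. Dnajc25 and Hspbap1 are dark blue in all 4 columns, and most of the 25 DnaJ C genes are pale.

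By family, the DnaJ C genes, the largest family, had the most members called. Of 25 measured, 6 fell and 0 rose in the hippocampus after CFC, 5 fell and 0 rose there after Context, 4 fell and 0 rose in the striatum after CFC, and 5 fell and 2 rose there after Context. Beside the shares of all genes given above, nothing particular to the family is read from these counts. All 4 DnaJ A genes, all 3 Hsp90 genes, Hsph1 and both chaperonin genes had no call in any drug comparison (edgeR). With the GC content and length offsets Hsp90aa1, Hsp90ab1 and Hsp90b1 were called higher in the hippocampus after Context (adjusted p = 0.0226, 0.0135 and 0.043) and Hsp90aa1 also after CFC (adjusted p = 0.016). Each of the 4 comparisons called 1 of the 4 heat shock factor genes, Hsf2, which fell. In all, 24 members were called in at least 1 drug comparison and 9 in all 4, of which 8 fell and 1, Hspb8, rose.

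Dnajc25, a membrane-anchored DnaJ protein that has been little studied, had the lowest log2 fold change of the members in 3 of the 4 drug comparisons, and Hspbap1 in the other, hippocampus CFC. It had 1.82, 2.19, 1.59 and 2.07 CPM in hippocampus HDACi CFC libraries, against 3.85, 3.94, 4.51 and 4.04 CPM in Veh CFC libraries. It had 1.54, 1.73, 1.62 and 1.41 CPM in striatum HDACi CFC libraries, against 3.95, 4.41, 4.63 and 4.43 CPM in Veh CFC libraries. No drug-treated library reached the lowest vehicle library, and the Context groups were likewise apart, at 1.34 to 2.37 CPM against 4 to 4.83 CPM in the hippocampus and 1.19 to 2.24 CPM against 3.77 to 4.52 CPM in the striatum. The log2 fold changes were -1.02 ± 0.16 and -1.26 ± 0.16 (SE) in the hippocampus after CFC and Context and -1.38 ± 0.16 and -1.17 ± 0.16 in the striatum (adjusted p = 0.000216, 3.81e-05, 1.1e-05 and 4.78e-05, edgeR). Its transcripts share 348 exon bases on the same strand with the predicted gene Gm20503, which had 0 CPM in the libraries.

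Hspbap1, named for binding the small heat shock protein Hspb1, also fell in every comparison, though less than Dnajc25 in the striatum. It averaged 2.34 ± 0.218 CPM in hippocampus HDACi CFC and 5.1 ± 0.321 CPM in Veh CFC (SD, n = 4 each). It averaged 3.1 ± 0.263 CPM in striatum HDACi CFC and 6.1 ± 0.83 CPM in Veh CFC (SD, n = 4 each). HDACi and Veh libraries did not overlap in any of the 4 comparisons, and the log2 fold changes were -1.06, -1.03, -0.89 and -0.78 (adjusted p = 6.96e-05, 9.78e-05, 0.00015 and 0.000435, edgeR).

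Hspa14 and Dnajc2 encode the Hsp70 and DnaJ subunits of the ribosome-associated complex, which meets new chains as they leave the ribosome. Hspa14 had 15.3, 18.2, 18.2 and 18.4 CPM in hippocampus HDACi CFC libraries, against 24.8, 25.1, 26.2 and 24.4 CPM in Veh CFC libraries. In every comparison its HDACi libraries lay below all Veh libraries, and the log2 fold changes were -0.46, -0.47, -0.45 and -0.41 (adjusted p 0.000243 to 0.000613, edgeR). Its exons overlap the predicted gene Gm45902 on the same strand over 321 bases, and Gm45902 itself had 3.61 to 9.87 CPM, so reads could be split between them.

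Dnajc2, its partner, was called only in the hippocampus. It had 17.1, 18.5, 22.1 and 20.3 CPM in HDACi CFC libraries, against 28.8, 25, 27.8 and 29.1 CPM in Veh CFC libraries. In the striatum it had 41, 33.9, 52.2 and 41.6 CPM in HDACi CFC libraries, against 44.3, 39.6, 43.5 and 47.4 CPM in Veh CFC libraries. The groups were apart in the hippocampus and overlapped in the striatum. The log2 fold changes were -0.44 ± 0.11 and -0.48 ± 0.11 (SE) in the hippocampus (adjusted p = 0.00736 and 0.00424, edgeR) and 0.04 ± 0.11 and 0.08 ± 0.11 in the striatum (adjusted p = 0.849 and 0.658). The hippocampus minus striatum difference of the drug effect was -0.48 ± 0.16 after CFC and -0.58 ± 0.16 after Context, and it did not pass (adjusted p = 0.274 and 0.109, edgeR). Without the libraries that stand apart, which left HDACi CFC replicates 1 and 3, the hippocampus CFC call was lost (log2 fold change -0.42, adjusted p = 0.0514, edgeR).

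Dnajc21, which acts in maturation of the large ribosomal subunit, fell in both regions. It had 18, 16.8, 20.1 and 16.2 CPM in hippocampus HDACi CFC libraries, against 23.9, 24.7, 29.2 and 23.1 CPM in Veh CFC libraries. It had 6.6, 5.03, 5.46 and 4.67 CPM in striatum HDACi Context libraries, against 10.9, 9.39, 13 and 13.6 CPM in Veh Context libraries. The groups did not overlap, and the log2 fold changes were -0.44 and -0.44 in the hippocampus and -0.69 and -0.996 in the striatum (adjusted p = 0.00785, 0.00708, 0.00309 and 0.000139, edgeR). The hippocampus CFC call was lost without the libraries that stand apart (log2 fold change -0.32, adjusted p = 0.0989, edgeR). The region difference after Context was 0.53 ± 0.18 (SE) and did not pass (adjusted p = 0.276, edgeR).

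Hsf2, a heat shock factor known for roles in development and for pairing with Hsf1, fell in all 4 comparisons. It had 26.4, 26.5, 34.7 and 26.5 CPM in hippocampus HDACi CFC libraries, against 42.2, 35.9, 43.5 and 38.9 CPM in Veh CFC libraries. It had 21.2, 23.3, 22.3 and 20.7 CPM in striatum HDACi CFC libraries, against 30.1, 28.9, 37.2 and 32.2 CPM in Veh CFC libraries. The groups were apart, and the log2 fold changes were -0.43, -0.43, -0.47 and -0.56 (adjusted p = 0.0121, 0.0116, 0.000916 and 0.000186, edgeR). The hippocampus CFC call was lost without the libraries that stand apart (-0.32, adjusted p = 0.137, edgeR). Hsf1, the main activator of the heat shock response, averaged between 24.1 and 30.7 CPM in the groups and had no call, with log2 fold changes of -0.06, -0.05, -0.21 and -0.15.

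Dnajc17, a nuclear DnaJ protein tied to pre-mRNA splicing, fell by 0.59 and 0.63 on the log2 scale in the hippocampus and by 0.48 and 0.45 in the striatum (adjusted p 0.0091 to 0.019, edgeR). Its striatum Context call was lost without HDACi Context replicate 3 or 4 (adjusted p up to 0.0695, edgeR). Dnajc14, a DnaJ protein of the ER membrane chosen for naming after its values were seen, fell by 0.20, 0.22, 0.30 and 0.32 (adjusted p 0.00162 to 0.00853, edgeR). Both had HDACi and Veh libraries apart in every comparison. The hippocampus CFC call of Dnajc14 was lost without the libraries that stand apart (log2 fold change -0.18, adjusted p = 0.0673, edgeR). Dnajc14 shares exon bases with Sarnp on its own strand, and Dnajc17 overlaps Zfyve19 on the opposite strand. The setting for strand in the counting is not given in the sources used here.

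**Figure D2:**
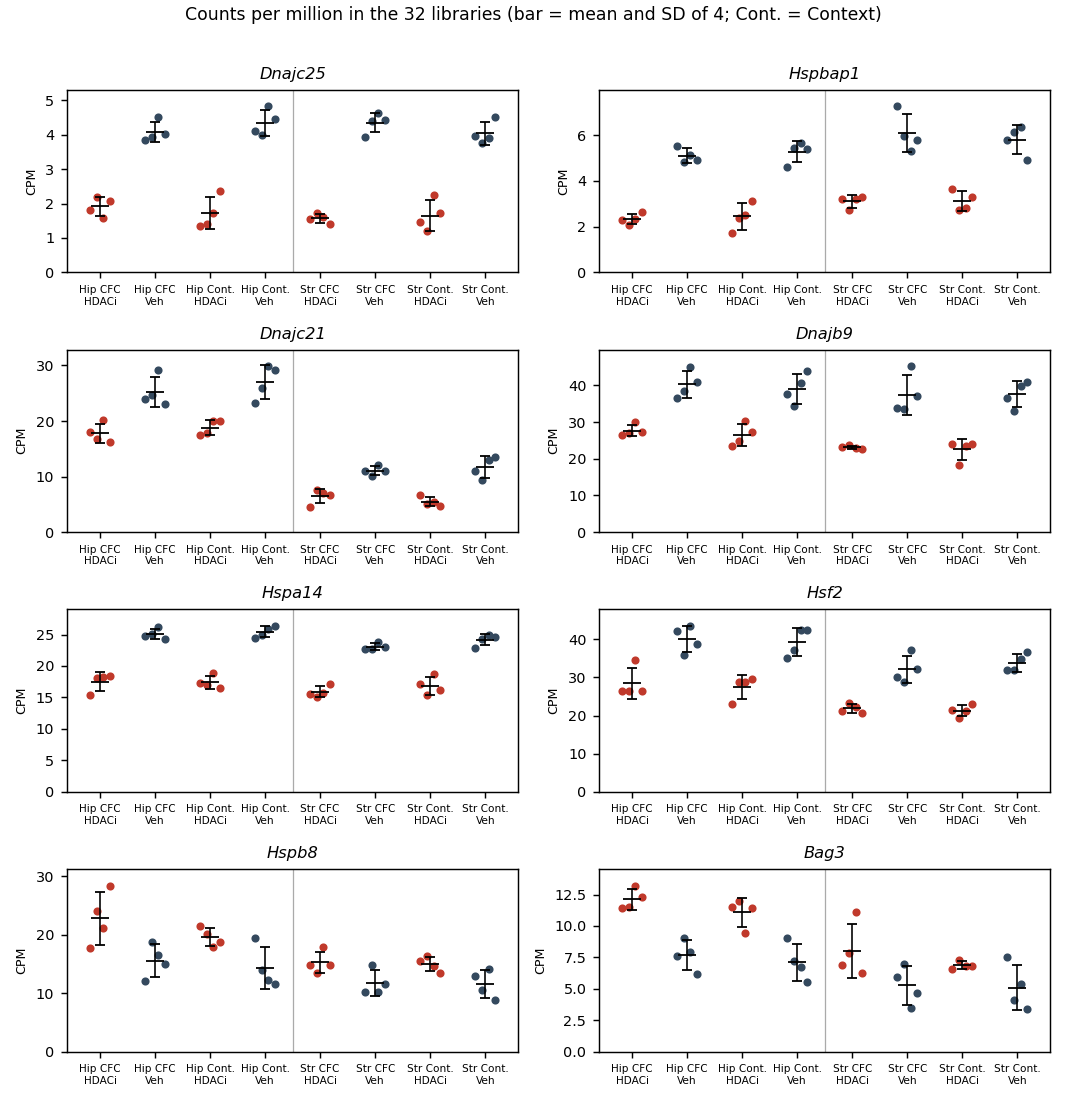
CPM (vertical axis, from 0) of 8 members in each library of the 8 groups (horizontal axis; red HDACi, dark Veh; bars are mean and SD of 4 libraries). The 6 members that fell have all HDACi points below the Veh points beside them, while the groups overlap for Hspb8.

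The members that rose included a pair that works together: Hspb8, a small heat shock protein, and Bag3, its co-chaperone in the delivery of misfolded protein to autophagy. Bag3 had 11.4, 11.5, 13.2 and 12.3 CPM in hippocampus HDACi CFC libraries, against 7.57, 9.07, 7.93 and 6.16 CPM in Veh CFC libraries. It had 11.5, 12, 9.43 and 11.4 CPM in hippocampus HDACi Context libraries, against 9.02, 7.18, 6.71 and 5.51 CPM in Veh Context libraries. All hippocampus HDACi libraries were above all Veh libraries of their session, with log2 fold changes of 0.72 ± 0.14 and 0.72 ± 0.14 (SE, adjusted p = 0.000954 and 0.00106, edgeR). In the striatum Bag3 had 6.87, 7.86, 11.1 and 6.25 CPM in HDACi CFC libraries, against 5.91, 7, 3.45 and 4.69 CPM in Veh CFC libraries. These groups overlapped, and the log2 fold changes were 0.70 ± 0.24 after CFC (adjusted p = 0.0437, edgeR) and 0.55 ± 0.24 after Context (adjusted p = 0.105). The striatum CFC call was lost when any of HDACi CFC replicates 1, 2 and 3 or Veh CFC replicates 1, 3 and 4 was left out (adjusted p up to 0.159, edgeR). Without the libraries that stand apart it was 0.55 (adjusted p = 0.134, edgeR), and without the 4 CFC libraries numbered 3 the value was 0.34 (adjusted p = 0.298, edgeR).

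Hspb8 had 17.8, 24, 21.1 and 28.4 CPM in hippocampus HDACi CFC libraries, against 12.1, 18.7, 16.6 and 14.9 CPM in Veh CFC libraries. In the striatum it had 14.8, 13.5, 17.9 and 14.8 CPM in HDACi CFC libraries, against 10.2, 14.8, 10.3 and 11.6 CPM in Veh CFC libraries. The groups overlapped in all 4 comparisons, and the log2 fold changes were 0.62, 0.53, 0.47 and 0.48 (adjusted p = 0.0117, 0.0306, 0.0287 and 0.0242, edgeR). Scaled by library size alone, Hspb8 kept its call only in the hippocampus after CFC (adjusted p = 0.0767, 0.0714 and 0.0779 in the others, edgeR). In a separate fit with the main scaling and without the libraries that stand apart, the hippocampus CFC call was lost instead (0.40, adjusted p = 0.212, edgeR). The other 3 calls were kept in that fit. Leaving out 1 library removed the other 3 calls for all but replicate 3 of HDACi Context and 1 of Veh Context in the hippocampus, for replicates 1 and 3 of HDACi CFC and 1, 3 and 4 of Veh CFC in the striatum, and for replicates 1 and 2 of HDACi Context and 2 and 4 of Veh Context there (adjusted p up to 0.096, edgeR). Hspb6, a small heat shock protein of muscle named after its values were seen, rose only in the hippocampus after CFC (0.59, adjusted p = 0.0459, edgeR), where replicates 2 and 4 had 2.63 and 2.86 CPM and replicates 1 and 3 had 1.65 and 1.62 CPM. Those 2 libraries are the ones high in choroid plexus markers, and without them the log2 fold change of Hspb6 was 0.19 (adjusted p = 0.649, edgeR). The Hspb6 call was also lost without any single library other than HDACi CFC replicates 1 and 3 (adjusted p up to 0.161, edgeR).

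Some markers of other cell types were also called in the drug comparisons. All 6 oligodendrocyte precursor markers rose in the hippocampus after CFC and Context and in the striatum after CFC, and 5 of 6 in the striatum after Context. Their summed level was 289 to 322 CPM in hippocampus HDACi CFC against 201 to 227 CPM in Veh CFC. It was 269 to 343 CPM in HDACi Context against 193 to 228 CPM in Veh Context. In the striatum it was 307 to 366 CPM in HDACi CFC against 195 to 256 CPM in Veh CFC, and 272 to 359 CPM in HDACi Context against 197 to 236 CPM in Veh Context. Of 8 endothelial and pericyte markers, 3 and 2 rose in the hippocampus and 3 and 5 in the striatum. Their summed levels were apart in hippocampus CFC (305 to 331 CPM in HDACi against 250 to 303 CPM in Veh). They were also apart in striatum Context (322 to 384 CPM against 286 to 310 CPM). They overlapped in hippocampus Context (283 to 339 CPM against 259 to 317 CPM) and striatum CFC (312 to 352 CPM against 280 to 339 CPM). All 10 choroid plexus markers rose in the hippocampus after CFC, with a summed level of 38.7 to 6203 CPM in HDACi CFC against 41.8 to 89.5 CPM in Veh CFC. The high levels were in the HDACi CFC libraries named above as standing apart, and the lowest HDACi library lay below every Veh library. In the hippocampus after Context 0 of the 10 were called. No marker on these lists was at 0. In bulk tissue, a change in the cells of a type and a change in RNA per cell cannot be told apart. The part of these markers in the chaperone results was not tested.

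Hspa12b, an atypical Hsp70 gene known from endothelial cells, rose in both regions after CFC (0.47 and 0.54 on the log2 scale, adjusted p = 0.0428 and 0.0407, edgeR). The values after Context were 0.43 and 0.39 (adjusted p = 0.0644 and 0.13), and with the replicate block Hspa12b passed in the hippocampus (0.44, adjusted p = 0.0254, edgeR). Each CFC call was lost without any single library other than HDACi CFC replicate 3 and Veh CFC replicate 3 (hippocampus) or 1 (striatum), with adjusted p up to 0.133 (edgeR). Without the libraries that stand apart the adjusted p was 0.195 and 0.225 (edgeR). Its paralog Hspa12a, expressed in neurons, had 374, 373, 382 and 376 CPM in hippocampus HDACi CFC libraries, against 297, 322, 322 and 336 CPM in Veh CFC libraries. These groups did not overlap, and Hspa12a rose by 0.30 ± 0.05 after CFC and 0.23 ± 0.05 after Context (SE, adjusted p = 0.000789 and 0.00558, edgeR). With no filter on low counts the Context value did not pass (0.21, adjusted p = 0.0564, edgeR). In the striatum its values were 0.16 and 0.17 (adjusted p = 0.29 and 0.262).

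Dnajb4, a DnaJ protein of the same type as Dnajb1, had 128, 105, 190 and 115 CPM in striatum HDACi CFC libraries, against 96.4, 87.5, 102 and 90.7 CPM in Veh CFC libraries. It had 112, 145, 132 and 150 CPM in striatum HDACi Context libraries, against 110, 89.2, 105 and 96.9 CPM in Veh Context libraries. The groups were apart in both sessions, and Dnajb4 rose by 0.60 ± 0.16 and 0.54 ± 0.15 (SE, adjusted p = 0.00951 and 0.0165, edgeR). The Context call was lost without Veh Context replicate 2 or HDACi Context replicate 4 (adjusted p up to 0.0679, edgeR). In the hippocampus its log2 fold changes were 0.17 and 0.16 (adjusted p = 0.434 and 0.446), and the region difference after CFC was -0.44 ± 0.21 (adjusted p = 0.626, edgeR). With the GC content and length offsets Dnajb4 was called in the hippocampus after both sessions (0.26 and 0.27, adjusted p = 0.0276 and 0.0242, edgeR). The other scalings did not call it there.

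Dnajb5, known for binding class II histone deacetylases, rose in the striatum after CFC (0.63 ± 0.18, adjusted p = 0.0164, edgeR). It had 197, 182, 188 and 176 CPM in striatum HDACi CFC libraries, against 180, 107, 130 and 91.5 CPM in Veh CFC libraries. Veh CFC replicate 1 overlapped the treated group, and the call was lost without Veh CFC replicate 2 or 4 (adjusted p up to 0.0637, edgeR). In the other 3 comparisons Dnajb5 had log2 fold changes of 0.35, 0.39 and 0.49 (adjusted p = 0.125, 0.0843 and 0.0532). With the replicate block Dnajb5 passed in the hippocampus after Context (0.41, adjusted p = 0.00236, edgeR). The GC content and length offsets gave calls in all 3 (adjusted p = 0.0401, 0.0103 and 0.0221, edgeR). DESeq2 called Dnajb5 after Context in hippocampus and striatum (adjusted p = 0.0449 and 0.0318). Scaled by library size alone, it passed in none of the 3. Bag5, a nucleotide exchange factor of Hsp70, was named after its values were seen and rose in the striatum after both sessions (0.27 and 0.40, adjusted p = 0.0324 and 0.00303, edgeR). The CFC call of Bag5 was lost without replicate 1 or 3 of HDACi CFC or 1, 2 or 3 of Veh CFC (adjusted p up to 0.119, edgeR). In the hippocampus its values were -0.02 and 0.09. Its region differences of -0.30 and -0.33 did not pass (adjusted p = 0.354 and 0.226, edgeR).

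Chaperones of the ER did not move together. Dnajb9, a co-chaperone that holds the stress sensor Ern1 in check with the Hsp70 protein Hspa5, had 26.5, 27, 30 and 27.2 CPM in hippocampus HDACi CFC libraries, against 36.6, 38.5, 45.1 and 41 CPM in Veh CFC libraries. It had 23.2, 23.8, 22.8 and 22.7 CPM in striatum HDACi CFC libraries, against 33.8, 33.6, 45.3 and 37.1 CPM in Veh CFC libraries. No HDACi library reached a Veh library of its comparison, and Dnajb9 fell by 0.48, 0.48, 0.61 and 0.63 (adjusted p = 0.00252, 0.00251, 0.000652 and 0.000504, edgeR).

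Hspa5 itself had 254, 299, 432 and 329 CPM in hippocampus HDACi CFC libraries, against 316, 296, 418 and 206 CPM in Veh CFC libraries. The groups overlapped throughout, and its log2 fold changes were 0.15 ± 0.19, 0.26 ± 0.19, 0.16 ± 0.22 and 0.15 ± 0.22 (SE, adjusted p = 0.637, 0.384, 0.627 and 0.673, edgeR). The ER Hsp90 gene Hsp90b1 had log2 fold changes of 0.04, 0.14, 0.00 and 0.10 and no call. Of the other ER members, named after their values were seen, Hspa13 fell after Context in both regions (-0.34 and -0.30, adjusted p = 0.0288 and 0.0247, edgeR) and Dnajc3 fell in the striatum after Context (-0.31, adjusted p = 0.0225, edgeR). The Hspa13 calls were lost without Context HDACi replicate 1, 2 or 4 or Veh replicate 3 or 4 in the hippocampus, and without HDACi replicate 2 or Veh replicate 3 or 4 in the striatum (adjusted p up to 0.0909, edgeR). The Dnajc3 call was lost without HDACi Context replicate 2 or 4 or Veh Context replicate 3 (adjusted p up to 0.0792, edgeR). Of Hspa5, Hsp90b1 and Dnajc3, whose promoters hold the ER stress element printed above, Dnajc3 alone was called, in 1 comparison. Beside the 19.8% to 24.8% of all genes called, nothing is read from this count.

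The unfolded protein response list held 23 genes, of which 22 were tested in the hippocampus and 23 in the striatum. After CFC 4 fell and 0 rose in the hippocampus, and 7 fell and 0 rose in the striatum. After Context 5 fell and 1 rose in the hippocampus, and 6 fell and 0 rose in the striatum. Of all genes, 13.4% and 14.6% fell after CFC and 13.2% and 14.5% after Context in hippocampus and striatum. The list's median log2 fold change was -0.14, -0.09, -0.12 and -0.09 in hippocampus CFC, hippocampus Context, striatum CFC and striatum Context, beside 0.01, 0.01, 0.03 and 0.03 over all genes tested. The stress sensor kinase gene Eif2ak3 fell by 1.05, 1.17, 1.17 and 1.27, and the sensor gene Ern1 fell by 0.71, 0.83, 0.77 and 0.93 (adjusted p up to 9.29e-08 for Eif2ak3 and 6.27e-05 for Ern1, edgeR). These lists were chosen with earlier results of these data known.

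**Figure D3:**
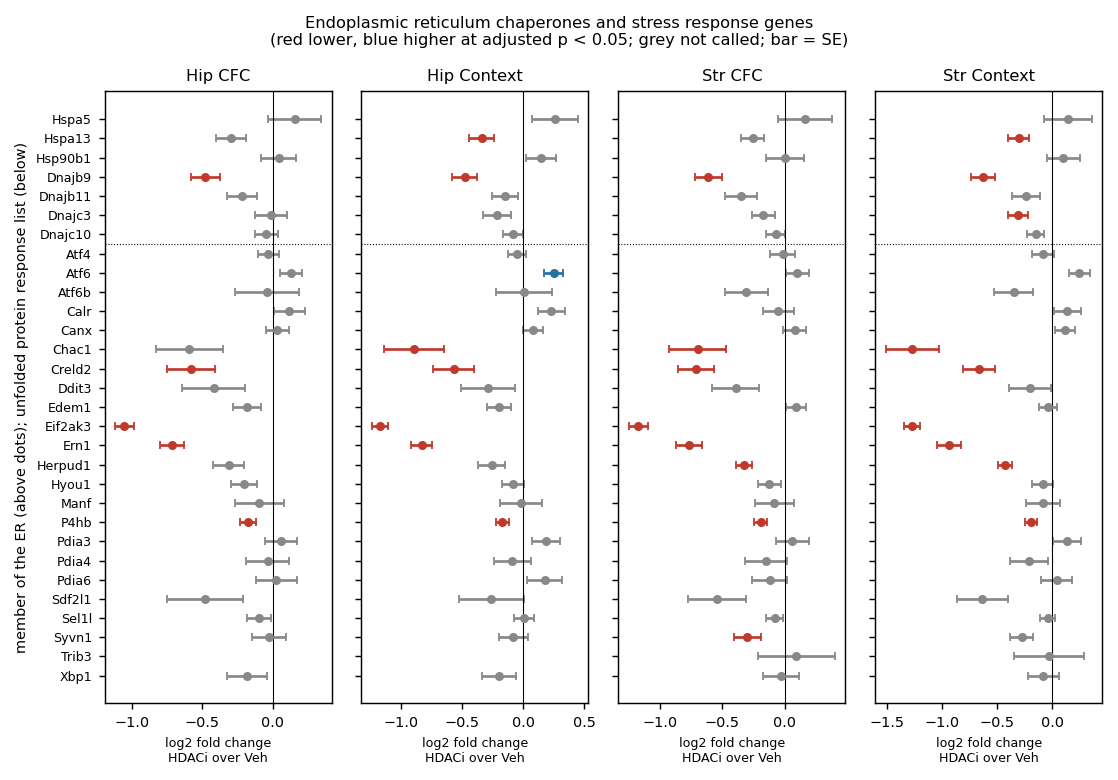
Log2 fold change (HDACi over Veh, horizontal axis, bars are SE) of 7 ER members (above the dotted line) and the unfolded protein response list (below it) in the 4 drug comparisons, with red lower and blue higher at adjusted p under 0.05. Eif2ak3, Ern1, Creld2 and Dnajb9 lie left of 0 in every panel, while Hspa5 and Hsp90b1 lie at or right of it with bars that are wide for Hspa5.

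The other proteostasis lists are given beside the 20.8% (CFC) and 19.8% (Context) of all genes called in the hippocampus, and 24.2% and 24.8% in the striatum. Of 28 Hsp90 and Hsp70 co-chaperones outside the rule, 1 fell in each comparison, Grpel2, a nucleotide exchange factor of mitochondrial Hsp70, by 0.46, 0.41, 0.58 and 0.68. Cdc37l1, a relative of the kinase co-chaperone Cdc37, was the 1 that rose, in the striatum after CFC (0.34, adjusted p = 0.029, edgeR). Of 16 genes of the cytosolic chaperonin and prefoldin, 3 fell in each hippocampus comparison and 1 in each striatum comparison. Cct5, a subunit of that chaperonin, was the 1 that rose, in the hippocampus after Context (0.17, adjusted p = 0.0309, edgeR). Pdcl, which helps that chaperonin fold G protein subunits, fell in all 4 (by 0.43, 0.44, 0.63 and 0.56), and Pdcl3 in the hippocampus (by 0.31 and 0.32). Of 14 stress-induced genes tested, 1 rose and 2 fell after CFC and 0 rose and 2 fell after Context in the hippocampus, and 3 rose and 0 fell after each session in the striatum. Gclc, of glutathione synthesis, fell in the hippocampus by 0.27 and 0.28 (adjusted p = 0.0214 and 0.0175, edgeR). Of 31 proteasome subunits 0 rose, and 2, 1, 0 and 1 fell.

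Of the preset members, Bag3 and Hsf2 were called, as given above. The other preset members, listed next, did not pass the edgeR test used for the calls. Hspa8, Hsph1 and the Hsp90 genes passed in other fits. Hspa1a, Hspa1b, Hspa5, Hspa8, Hsph1, Hsp90aa1, Hsp90ab1, Hsp90b1, Hspb1, Hspd1, Hspe1, Dnajb1 and Hsf1 had log2 fold changes between -0.33 (Dnajb1) and 0.60 (Hspa1a), with a smallest adjusted p of 0.0712, for Hspa8 (edgeR). Hspa8 had 2188, 2345, 2320 and 2313 CPM in hippocampus HDACi Context libraries, against 2108, 1915, 2269 and 1852 CPM in Veh Context libraries. One Veh library lay within the treated range, and the log2 fold change was 0.25 ± 0.09 (SE). With the replicate block this comparison gave 0.26 for Hspa8 (adjusted p = 0.00363, edgeR) and 0.12 for Hsp90ab1 (adjusted p = 0.047), and DESeq2 called both (adjusted p = 0.0312 and 0.0325). With the offsets Hspa8 passed after both sessions in the hippocampus and after Context in the striatum (adjusted p = 0.0338, 0.00456 and 0.0294, edgeR). Without the libraries that stand apart Hspa8 passed in the striatum after CFC (0.46, adjusted p = 0.0167, edgeR), and so did Hsph1 (0.57, adjusted p = 0.0417).

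For the most inducible genes the test was weak. Hspa1b had 6.4, 4.63, 12.2 and 4.81 CPM in hippocampus HDACi CFC libraries, against 5.84, 7.84, 5.81 and 3.71 CPM in Veh CFC libraries. It had 0.876, 1.62, 5.97 and 1.03 CPM in striatum HDACi CFC libraries, against 2.24, 2.44, 2.75 and 0.656 CPM in Veh CFC libraries. The spread within a group exceeded the difference between groups, and the SE of its log2 fold change was 0.31 and 0.32 in the hippocampus and 0.70 and 0.72 in the striatum. Over the members, the SD of log2 CPM within groups had a median of 0.145 in the hippocampus and 0.163 in the striatum, and it was largest for Hspb1 (0.58) in the hippocampus and for Hspa1b (0.88) and Hspa1a (0.65) in the striatum.

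**Figure D4:**
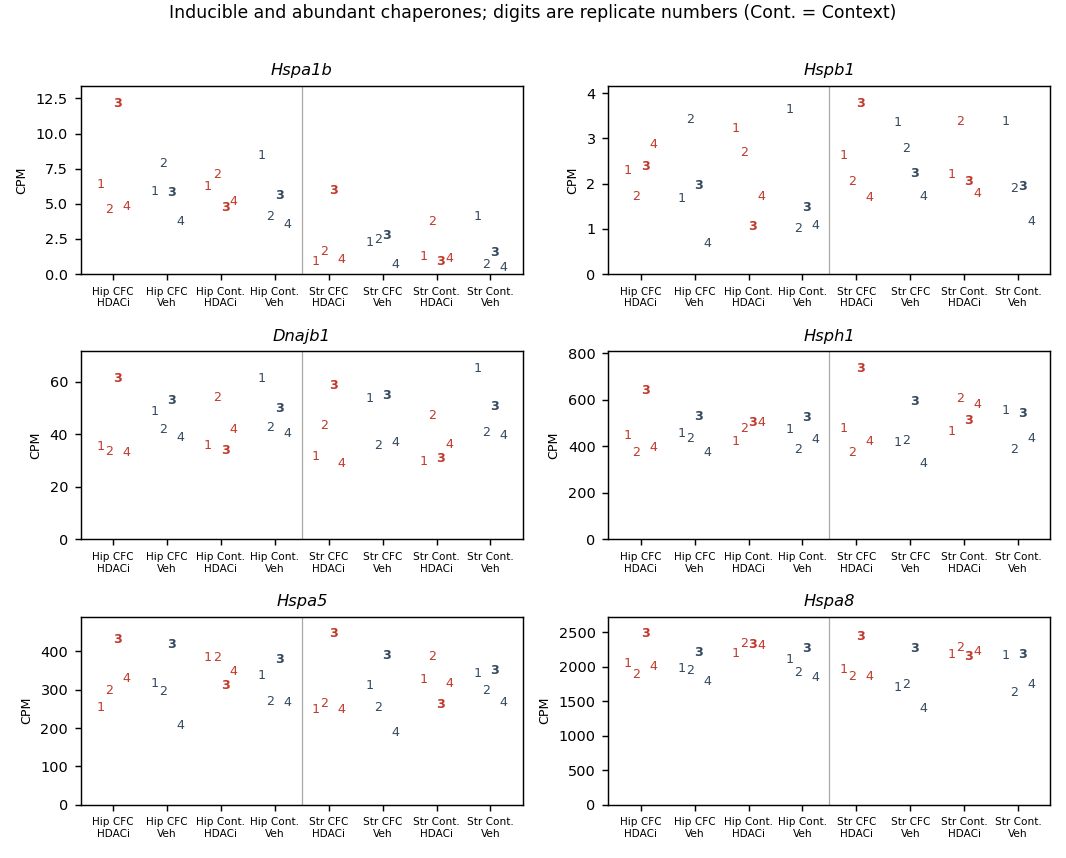
CPM (vertical axis, from 0) of 6 inducible or abundant chaperones in each library of the 8 groups, drawn as the replicate number (red HDACi, dark Veh; 3 in bold). In the CFC groups the 3 is often the highest digit, as for Hsph1 and Hspa5 in all 4 of them.

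The spread followed particular libraries. Of 12 inducible or abundant chaperones (the 13 named above without Hsf1), 11 were highest in replicate 3 of hippocampus HDACi CFC and 8 in replicate 3 of hippocampus Veh CFC. In the striatum, 12 were highest in replicate 3 of HDACi CFC and 10 in replicate 3 of Veh CFC. Replicate 4 of Veh CFC held the lowest level of 11 in the hippocampus and of 10 in the striatum. Context groups had such libraries too, with other numbers. In the striatum, 8 were highest in replicate 1 and 8 lowest in replicate 2 of Veh Context, and 8 highest in replicate 2 of HDACi Context. In the hippocampus, 7 were highest in replicate 3 of Veh Context, and at most 4, in replicate 2, in HDACi Context. Hsph1 had 641 CPM in replicate 3 of hippocampus HDACi CFC against 375 to 449 CPM in the other 3 libraries, and 735 CPM in replicate 3 of striatum HDACi CFC against 375 to 477 CPM. An alternative chosen after the data were seen left out the 4 CFC libraries numbered 3. It called 16 and 13 members in the CFC drug comparisons of hippocampus and striatum, beside 18.1% and 23.7% of all genes. The source of the pattern was not tested.

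Foot shock was compared with the same chamber without shock. No member was called for CFC over Context in the hippocampus or the striatum, with drug or with vehicle (edgeR), beside 0% of all genes. At an unadjusted p under 0.05, 1 member passed in hippocampus HDACi mice (Dnajb13, 0.73), 2 passed in striatum HDACi mice (Bag2, 0.43, and Dnajc7, -0.16) and 0 passed in either vehicle comparison. DESeq2 also called 0 members. The immediate early gene list had 0 of 8 genes called for CFC over Context in any of the 4 comparisons. Its median log2 fold change was 0.21 and 0.22 in hippocampus Veh and HDACi mice, and 0.19 and 0.72 in striatum Veh and HDACi mice. Changes larger than small ones thus also went uncalled. Members' log2 fold changes ranged between -0.24 and 0.62 in hippocampus Veh mice and between -0.23 and 0.46 in striatum Veh mice, and the median SE was 0.11 in both, so small changes were not detectable with 4 libraries a group.

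No difference of the drug effect between sessions passed the test for a member. The interaction of HDACi with CFC had 0 members called in each region, beside 0% of all genes, with 0 at an unadjusted p under 0.05 and 0 by DESeq2. The median SE of the members' interaction was 0.16 in each region, so small differences were not detectable. The difference of the drug effect between regions had 0 members called after CFC, beside 0.266% of all genes (0.141% higher, 0.125% lower), and 0 after Context, beside 0.62% (0.286% higher, 0.333% lower). At an unadjusted p under 0.05, 5 members passed after CFC and 4 after Context, with Dnajc2, Bag5 and Dnajc8 in both. DESeq2 called 0 members in each.

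The regions themselves differed in their chaperones. In vehicle Context mice 28 of 76 members were called for hippocampus over striatum (36.8%), 18 higher and 10 lower, beside 44.1% of all genes (24.2% higher, 19.9% lower), so the share was not above the background. With a replicate block, since same-numbered libraries of the regions deviated together, 35 were called, 21 higher and 14 lower, beside 51.6% of all genes. Hspa12a had 319, 339, 340 and 356 CPM in the hippocampus, against 115, 131, 123 and 134 CPM in the striatum. These did not overlap, and the log2 fold change was 1.40 ± 0.09 (SE, adjusted p = 4.99e-14, edgeR). Dnajc21 was 1.18 ± 0.13 higher (adjusted p = 7.02e-09), with 23.3 to 29.9 CPM in the hippocampus against 9.39 to 13.6 CPM in the striatum.

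Hspa1a and Hspa1b had the highest log2 fold changes, 1.51 ± 0.50 and 1.66 ± 0.57 (SE, adjusted p = 0.0141 and 0.0183, edgeR). Hspa1b had 8.45, 4.11, 5.59 and 3.51 CPM in the hippocampus, against 4.09, 0.671, 1.54 and 0.446 CPM in the striatum, and the groups overlapped. Both calls were lost without hippocampus replicate 1, striatum replicate 2 or striatum replicate 4 (adjusted p up to 0.0536 for Hspa1a and 0.0812 for Hspa1b, edgeR). Among lower members, Dnajc2 had 24.9, 26.3, 27.5 and 30.6 CPM in the hippocampus, against 45, 45.1, 47.6 and 48.6 CPM in the striatum (-0.80 ± 0.11, adjusted p = 8.78e-07, edgeR). Bag5, named after its values were seen, was also lower (-0.79, adjusted p = 6.87e-10, edgeR).

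**Figure D5:**
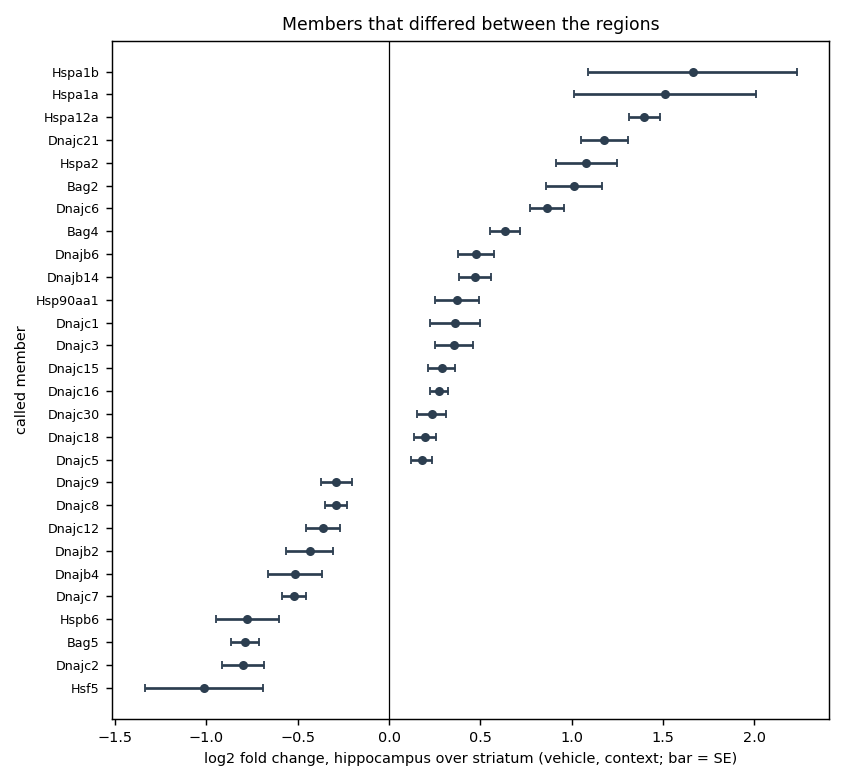
Log2 fold change (hippocampus over striatum, vehicle Context, horizontal axis; bars are SE) of the 28 called members, ordered by size. Hspa1b and Hspa1a lie farthest right with the widest bars, Hspa12a follows at 1.40 with a narrow bar, and 10 members lie left of 0.

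Promoter elements were set beside the drug calls as a description. Of members with a promoter, the pair of heat shock units was present in 4 of 12 that rose in at least 1 drug comparison (33.3%), in 0 of 10 that fell and in 12 of 40 with no drug call (30%). Those that rose were Bag3, Dnajb4, Hspb6 and Hspb8, while Hspa1a, Hspa1b, Hspb1, Hsph1 and Hspe1 also hold the pair and had no call. Transcripts of members that fell had a median GC content of 43.9%, those that rose 52% and those with no drug call 48.8%, beside 49.2% over all genes tested in the hippocampus. GC content moved with the direction of the calls, and its part in them was not tested beyond the fit with GC and length offsets given above.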

How the data were processed

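RNA-seq counts of 54146 genes in 32 libraries were used as deposited. The authors deposited whole-number counts per gene, not normalized; per the submitters' processing notes, the tools were STAR 2.6, bcl2fastq 2.20.0 and DESeq2 and the build was mm10, and the counter is not given in the sources used here. Gene symbols came from GENCODE M21. Counts without a symbol were at most 0.0264% of a library.

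edgeR 4.0.16 (R 4.3.3) was run with TMM scaling, filterByExpr, a quasi-likelihood F test on group means and Benjamini-Hochberg adjustment over all genes, by region, or on all 32 libraries between regions. CPM values use library totals. The test was checked on simulated data. Alternatives were DESeq2 1.42.0, other scalings, no filter, GC content and length offsets, subsets of libraries and a replicate block. The labels do not tie replicate numbers to animals. By the rule that every same-numbered pair correlates above 0.1, the numbers paired hippocampus Context libraries (0.166 to 0.375) and the regions in vehicle Context (0.145 to 0.43). Replicate pairs differed beyond counting noise (chi-square per degree of freedom 5.77 to 67.7).

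Members and lists were chosen with earlier results of these data known. Named genes were 15 preset members, the 8 called members with the largest change per drug comparison, the 4 per other comparison (mean log2 CPM of at least 1) and 2 per list. Dnajc14, Bag2, Bag5, Hspb6, Hspa13, Dnajc3 and a few others are exceptions, chosen after their values were seen. Within a region, libraries came from different mice, so p-values of those comparisons measure variation between animals. Between regions, libraries of the same number may share a mouse, which the labels do not say. The main fit treated them as separate, so its p-values between regions may not measure that variation.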

Additional observations from a re-analysis of the deposited data

Results flagged for a closer look

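Among 216 sets of 4 libraries (27 named members in 8 groups), 14 had 1 library far from the other 3, and chance alone flags about 1 set in 20. Most were replicate 3 of a CFC group. In hippocampus HDACi CFC, replicate 3 was high for Hspa1a (6.22 CPM against 2.4 to 2.6), Hspd1 (244 against 180 to 187), Dnajb1 (61.5 against 33.2 to 35.2), Hsf2 (34.7 against 26.4 to 26.5) and Dnajb4 (95.7 against 63.7 to 68.9). In hippocampus Veh CFC, replicate 3 was high for Hspd1 (226 CPM against 193 to 198). In striatum HDACi CFC, replicate 3 was high for Hspa1b (5.97 CPM against 0.876 to 1.62), Hspa5 (446 against 247 to 264) and Hspe1 (53.9 against 39.6 to 40.7), and low for Hsf1 (22.9 against 25.7 to 25.9). The other flagged libraries were Hspa1b in striatum HDACi Context replicate 2 (3.73 CPM against 0.865 to 1.25), Hsf2 in hippocampus HDACi Context replicate 1 (22.9 against 28.8 to 29.5), Dnajb9 in striatum HDACi Context replicate 2 (18.4 against 23.6 to 24.1) and Hspa14 in hippocampus HDACi CFC replicate 1 (15.3 against 18.2 to 18.4). What set these libraries apart was not tested.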

How the results depend on the processing

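No called value of a named member changed sign in any alternative run, but values with no call did (Hspa1b in striatum CFC ranged between -0.71 and 0.59 with 1 library left out). With GC content and length offsets more called members were higher than lower in each drug comparison. Of all genes called with the offsets, 48.9% to 52.4% were lower. The count of called members moved by more than 1.5 times in these cases. Percentages in brackets are the shares of all genes called. In hippocampus CFC (15, 20.8%) the count was 24 with the replicate block (29.7%) and 26 with GC content and length offsets (31.1%). It was 8 without the libraries that stand apart (12.6%), 8 with replicates 1 and 2 (9%) and 6 with replicates 3 and 4 (8.44%). In hippocampus Context (14, 19.8%) it was 23 with the block (29%) and 27 with the offsets (31.7%). With a term for replicates 1 and 2 against 3 and 4 it was 22 (27.9%). It was 7 with replicates 1 and 2 (8.2%) and 6 with replicates 3 and 4 (8.82%). In striatum CFC (15, 24.2%) it was 3 with replicates 1 and 2 (7.67%). In striatum Context (15, 24.8%) it was 24 with the offsets (32.4%). It was 5 with replicates 1 and 2 (8.32%) and 9 with replicates 3 and 4 (11.6%). The region difference after Context (0, 0.62%) became 1 with the block (1.24%), 1 with the replicate term (1.16%) and 2 with the offsets (1.42%). With 3 heat shock units in place of 2, 4 members' promoters held the element, against 16. Subsets hold fewer libraries; for the other settings the cause was not tested.

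Leaving out 1 library gave 12 to 17 members in hippocampus CFC, 11 to 16 in hippocampus Context, 11 to 14 in striatum CFC, 10 to 18 in striatum Context and 24 to 30 between regions, and 0 to 0 in the session, interaction and region difference comparisons. The replicate numbers did not pair the other drug comparisons. There the block gave 20 members in striatum CFC and 21 in striatum Context, beside 29.4% and 30.3% of all genes. Genes with few counts or a wide spread, such as Hspa1a, Hspa1b and Hspb1, limit what 4 libraries a group can show.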

Other observations

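Beyond the chaperones, the cell type lists gave values that belong to no comparison above. Of 7 astrocyte markers, 0 and 1 rose in the hippocampus after CFC and Context and 2 and 3 in the striatum. Of 7 oligodendrocyte markers 1 rose in each comparison, and 0 of 5 neuron markers were called (edgeR).

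Psmd11 and Psmd7, subunits of the proteasome lid, were the 2 proteasome genes called. Psmd11 fell by 0.17 and 0.19 in the hippocampus and by 0.18 in the striatum after Context, and Psmd7 fell by 0.20 in the hippocampus after CFC (edgeR).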
